A study of Mus musculus with 4 samples.

Results

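The MEF2 family of transcription factor genes was examined in cerebellar tissue of Kdm6b-cKO and WT mice at postnatal day 14 (P14). The family has 4 genes in the mouse, Mef2a, Mef2b, Mef2c and Mef2d, taken by their gene symbols out of 55341 counted symbols. Kdm6b-cKO mice carried a pair of loxP-flanked Kdm6b alleles together with heterozygous Atoh1-Cre, and WT mice were littermates with the same floxed alleles and no Cre (2 libraries per genotype, each from 1 mouse). Kdm6b encodes a demethylase of lysine 27 on histone H3. The floxed exons code for its catalytic domain. Cre was driven by Atoh1, a gene of granule neuron precursors, and which other cells of the tissue it reached was not measured in these data. The comparison asked how gene expression changes in the maturing cerebellum when granule neuron precursors lose this enzyme.

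MEF2 proteins bind DNA as dimers through a MADS box and an adjoining MEF2 domain at their N terminus, and recognise short A/T-rich sites. Calcium entry into neurons acts on them through calcineurin and calcium/calmodulin-dependent kinases, while class IIa histone deacetylases hold them in a repressive state. In rat granule neurons, MEF2A and MEF2D are known for survival under depolarising activity and for the differentiation of synapses. MEF2C is best known from heart, cortical neurons and microglia, and MEF2B from B cells.

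The genes lie on 4 chromosomes of GRCm38. Mef2a (ENSMUSG00000030557.17) spans chr7:67231163-67372858 on the minus strand. The other members are on the plus strand, with Mef2b (ENSMUSG00000079033.10) at chr8:70139711-70167488, Mef2c (ENSMUSG00000005583.16) at chr13:83504034-83667080 and Mef2d (ENSMUSG00000001419.17) at chr3:88142372-88172086. Their coding starts encode the beginning of the MADS box. The first 60 coding bases of the principal GENCODE transcript of each gene are given to show how alike the members are where they are most conserved, with the 35 bases that are identical in all 4 genes in capitals.
Mef2a: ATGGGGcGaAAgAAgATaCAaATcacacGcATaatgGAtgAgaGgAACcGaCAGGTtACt
Mef2b: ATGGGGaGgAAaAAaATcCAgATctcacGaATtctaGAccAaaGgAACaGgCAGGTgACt
Mef2c: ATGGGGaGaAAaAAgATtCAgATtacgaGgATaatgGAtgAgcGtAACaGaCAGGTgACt
Mef2d: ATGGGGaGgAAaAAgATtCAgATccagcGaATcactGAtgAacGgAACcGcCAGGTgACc

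The opening bases, from the start codon on, were the same in all members, and the differences were scattered over the rest. Over the first 171 coding bases, identity between pairs of members ranged from 74.3% (Mef2a and Mef2b) to 82.5% (Mef2c and Mef2d). Among all annotated transcripts, no stretch of 50 bases in any member was found in another, and the longest run shared between members was 31 bases, in Mef2b and in Mef2c. Reads of 150 bases were longer than every such run.

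Exons of other genes overlapped some members. Lysmd4 covered 302 bp of Mef2a exons on the opposite strand, Borcs8 covered 62 bp of Mef2b on the same strand, and the antisense gene 1700113A16Rik covered 531 bp of Mef2d, or 8.87% of its exon length. Whether the counting used strand is not given in the sources used here, so reads from these stretches may be missing or assigned to the wrong gene. The antisense gene was at 20.8 and 16.02 CPM in Kdm6b-cKO and at 16.8 and 19.5 CPM in WT, with overlapping groups.

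Gene starts of the family differed in base composition. The RefSeq windows (GRCm38.p6) run from 250 bases before to 50 bases after each start, and all 4 members had at least 1, with 3 for Mef2c. GC content was 62.3% for Mef2a and 72.0% for Mef2d, against 57.0% for Mef2b, 35.7%, 47.0% and 48.3% for the 3 starts of Mef2c, and a median of 52.7% over all 32851 windows. The 10-base MEF2 consensus site, with A or T at its central positions, was searched on both strands. It was in 0.557% of all windows and in 1 of the 6 windows of the family, that of Mef2a. There it covers the start site itself, at chr7:67372851-67372860. It is shown in capitals with its flanks as the only match to this consensus in the windows of the family. Looser forms of the site, and sequence outside the windows, were not searched.
Mef2a start, minus strand: ggcctgactcCTAAAAATAGccccggtgtg

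The match describes these letters and not a bound site. No binding data were analysed here.

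The libraries held 8811849 to 9892363 counts in genes. Levels are given as CPM, counts scaled to a common library size with TMM factors, and groups were compared by edgeR's quasi-likelihood test with Benjamini-Hochberg adjustment over 16617 genes at a threshold of 0.05. Kdm6b was counted over all its exons and not the floxed ones alone, so its level does not measure the deletion. The antisense gene Kdm6bos also covers 286 bp of those exons. Kdm6b was at 126.7 and 119 CPM in Kdm6b-cKO, against 154 and 154 CPM in WT (log2 fold change −0.33, SE 0.076, edgeR adjusted p = 0.0162). That call was lost without WT 1, without WT 2 and when low counts were kept (edgeR adjusted p = 0.0722 for the last). Without cKO 1 or cKO 2 the calls of all genes were lost, not that of Kdm6b alone. With 1 library left out, the log2 fold change of Kdm6b ran from −0.37 to −0.28. Xist and Ddx3y had a male pattern in WT 1 and a female one elsewhere (Xist 1409 and 1599 CPM in cKO 1 and cKO 2, 0.431 CPM in WT 1 and 1359 CPM in WT 2), so only comparisons without WT 1 set libraries of one pattern against each other. In bulk tissue, fewer cells of a type cannot be told apart from less RNA per cell.

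Mef2d and Mef2a were the abundant members of the family in this tissue, Mef2c was present at a lower level, and Mef2b was close to absent. Per kb of annotated exon, Mef2d was at 38.2 ± 1.09 CPM in Kdm6b-cKO and 44.1 ± 2.15 CPM in WT (mean ± SD, n = 2 each, also below). Mef2a followed at 13.2 ± 0.450 CPM per kb in Kdm6b-cKO and 14.7 ± 1.25 in WT. Mef2c was at 2.27 ± 0.121 CPM per kb in Kdm6b-cKO and 1.98 ± 0.144 in WT. Mef2b was at 0.335 ± 0.135 CPM per kb in Kdm6b-cKO and 0.269 ± 0.0546 in WT.

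The order Mef2d, Mef2a, Mef2c, Mef2b held in each of the 4 libraries, and no 2 neighbours in it overlapped. In level per kb, Mef2d was above 93.5% of tested genes, Mef2a above 74.9% and Mef2c above 25.4%. In CPM with no length these shares were 95.6%, 94.3% and 59.4%. The ranks and the size of the steps depend on the length used. Mef2a and Mef2c have long annotated exons (14681 and 15715 bp) beside principal transcripts of 2476 and 2589 bp. With principal transcript lengths, Mef2d was at 129 and Mef2a at 78.0 CPM per kb in Kdm6b-cKO, and at 149 and 87.4 in WT, in the same order.

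**Figure D1:**
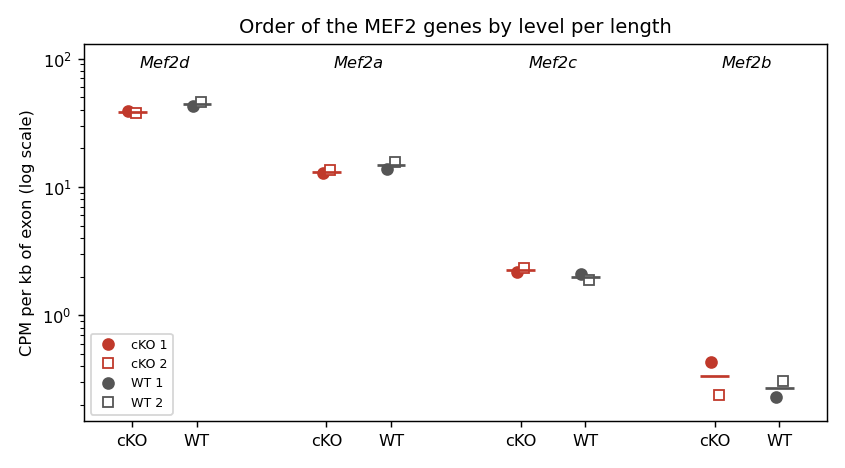
Level of each MEF2 gene per kb of annotated exon in TMM-scaled CPM, on a log axis, with 1 point per library (cKO in red on the left, WT in grey, replicate 1 filled and replicate 2 open) and each group mean as a bar. Mef2d lies near 40, Mef2a near 14, Mef2c near 2 and Mef2b below 0.5 CPM per kb in both genotypes.

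Mef2d, the most abundant member, had lower values in both Kdm6b-cKO libraries but did not pass the test. It was at 233 and 224 CPM in Kdm6b-cKO, against 255 and 273 CPM in WT. The groups did not overlap, and the difference between them was larger than that between libraries of either group. The log2 fold change was −0.21 (SE 0.069, 95% interval −0.35 to −0.064), or 0.866-fold, with an unadjusted p of 0.00667 and edgeR adjusted p = 0.104. It was −0.16 without WT 2 and −0.26 without WT 1, the library of male pattern.

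Mef2a, the factor whose sumoylated form is known in rat granule neurons for promoting postsynaptic differentiation, had a similar pattern with a smaller margin. It was at 188.5 and 198 CPM in Kdm6b-cKO, against 203 and 229.5 CPM in WT. The groups did not overlap, but WT 1 was closer to cKO 2 than to WT 2, which alone was well above the rest. The log2 fold change was −0.16 (SE 0.075, 95% interval −0.32 to −0.0085), or 0.892-fold, with an unadjusted p of 0.0397 and edgeR adjusted p = 0.274. Without WT 2 it was −0.074, and without WT 1, the library of male pattern, it was −0.25.

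Mef2c was the member with higher values in Kdm6b-cKO, and it too did not pass. It was at 34.3 and 37.0 CPM in Kdm6b-cKO, against 32.7 and 29.5 CPM in WT. The groups did not overlap, yet cKO 1 and WT 1 differed by less than their counting error, with exact 95% Poisson intervals of 30.7 to 38.1 CPM and 29.1 to 36.6 CPM. The log2 fold change was 0.20 (SE 0.12, 95% interval −0.051 to 0.44), with edgeR adjusted p = 0.446. The log2 fold change was 0.12 without WT 2 and 0.27 without WT 1, the library of male pattern.

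Mef2b had 6 and 3 counts in Kdm6b-cKO and 3 and 4 counts in WT. It was under the filter on low counts and was not tested. The ratio of its summed counts, scaled for depth, was 1.26 with an exact 95% interval of 0.419 to 3.99, so a difference within those bounds was not detectable at this depth. Such intervals cover counting error only.

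**Figure D2:**
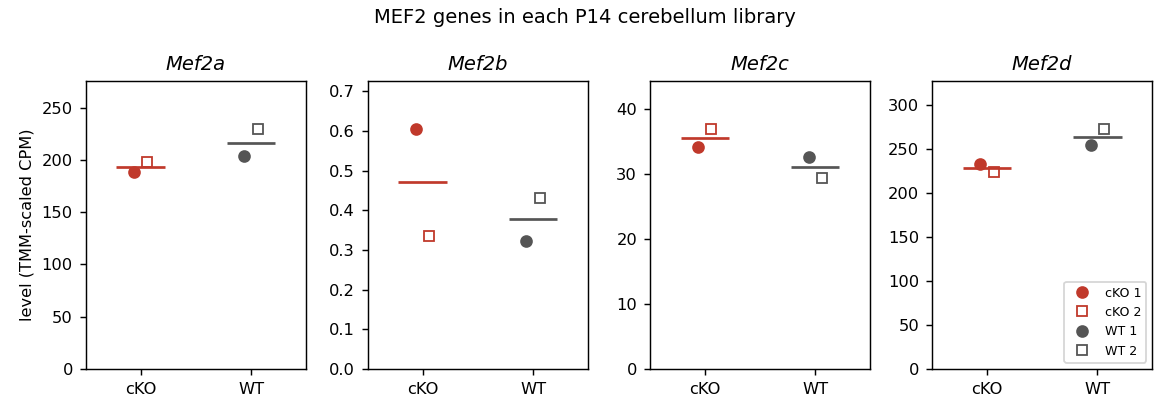
Level in TMM-scaled CPM of Mef2a, Mef2b, Mef2c and Mef2d by genotype, 1 panel per gene with its own axis from 0, with 1 point per library and a bar at the group mean. Both cKO points lie below both WT points for Mef2a and Mef2d and above them for Mef2c, and the groups overlap for Mef2b.

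Of the 4 members, 3 were tested and 0 passed edgeR's test, where 4.04% of all tested genes did. DESeq2 and limma-voom also called 0 of them. At an unadjusted p under 0.05 there were 2, Mef2a and Mef2d, beside 16.3% of all tested genes. Groups that did not overlap were common in these data, with Kdm6b-cKO higher for 23.2% and lower for 23.2% of tested genes, so a lack of overlap by itself was common among genes here.

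The differences were small for every tested member. The 95% intervals reach down to 0.784-fold for Mef2d and 0.801-fold for Mef2a, and up to 1.36-fold for Mef2c. Falls or rises beyond these sizes lie outside the intervals of the edgeR fit with TMM. The nearer bounds of that fit were 0.956-fold for Mef2d, 0.994-fold for Mef2a and 0.966-fold for Mef2c. Other fits had wider intervals, which in DESeq2 reached −0.38 for Mef2d, −0.35 for Mef2a and 0.53 for Mef2c on the log2 scale. For each of these genes, some fits with a library left out reached further still.

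**Figure D3:**
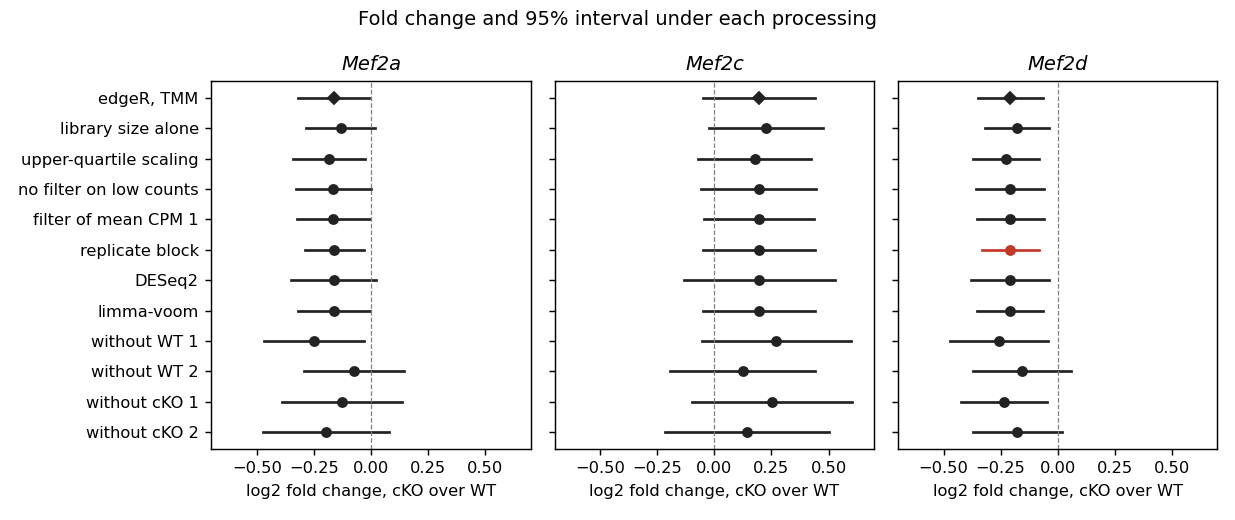
Log2 fold change (cKO over WT) with its 95% interval for Mef2a, Mef2c and Mef2d under edgeR with TMM (diamond) and each of 11 alternatives (circles), red where the adjusted p is under 0.05. All values for Mef2a and Mef2d lie below 0 and all for Mef2c above it, and 1 fit, Mef2d with a replicate block, passes the threshold.

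The balance between members was also followed by ratios within each library, in which scaling has no part. Mef2c counts were 8.13% and 8.77% of those of Mef2a and Mef2d together in Kdm6b-cKO, against 7.13% and 5.87% in WT. The groups did not overlap, with an exact two-sided permutation p = 0.333, the smallest that 2 against 2 libraries allow. The ratio of Mef2a to Mef2d counts was 0.809 and 0.884 in Kdm6b-cKO and 0.798 and 0.841 in WT, with overlapping groups. Summed over the family, the TMM-scaled level was 54.4 and 53.5 CPM per kb in Kdm6b-cKO, against 58.7 and 63.4 in WT, or 0.883 times (exact permutation p = 0.333). Mef2d made up 71.6% and 70.0% of that sum in Kdm6b-cKO and 72.5% and 71.9% in WT.

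Markers of granule neuron stages moved with genotype beside these genes. Of 8 markers of mature granule neurons 7 fell, where 4.04% of all tested genes passed in either direction. Their summed level was 4373 and 3876 CPM in Kdm6b-cKO, against 5306 and 5462 CPM in WT. The log2 fold changes of all 8 ranged from −0.61 to −0.16 with a median of −0.43. The −0.16 was that of Cbln1, which did not pass, and the 7 that fell ran from −0.61 to −0.29. Mef2a and Mef2d, at −0.16 and −0.21, changed less than each of those 7. All 7 markers of immature granule neurons rose, with summed levels of 931 and 1268 CPM in Kdm6b-cKO and 613 and 691 CPM in WT. Marker sums of some other cells were also lower in both Kdm6b-cKO libraries. For astrocytes and Bergmann glia they were 4039 and 3823 CPM in Kdm6b-cKO, against 4596 and 4531 CPM in WT. Of those 6 markers 3 fell and 0 rose. Purkinje cell and oligodendrocyte sums were lower too, with 1 of 6 markers falling in each and 1 Purkinje cell marker rising. The part of all these cells in the MEF2 values was not tested.

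Mef2c and Mef2b have other possible sources in tissue, whose markers were as follows. The 7 microglial markers, none of which passed, summed to 118 and 129.9 CPM in Kdm6b-cKO and 129.9 and 128 CPM in WT. The 7 markers of molecular layer interneurons and Golgi cells summed to 1115 and 1055 CPM in Kdm6b-cKO, against 1194 and 1204 CPM in WT, and none passed. The interneuron sum was thus lower in both Kdm6b-cKO libraries, where Mef2c was higher, and the microglial sum overlapped between groups, and their part in the Mef2c value was not tested. The 5 B cell markers summed to 1.31 and 0.672 CPM in Kdm6b-cKO and 0.863 and 1.19 CPM in WT, and none had enough counts to be tested. Choroid plexus markers stood apart in cKO 1, at a sum of 670.4 CPM, against 36.2 CPM in cKO 2 and 27.2 and 30.0 CPM in WT. Of these markers, Ttr was at 609 and 13.9 CPM in cKO 1 and cKO 2, against 1.73 and 0.108 CPM in WT. Otx2 was at 27.9 and 19.8 CPM in Kdm6b-cKO and 23.1 and 27.2 CPM in WT, with overlapping groups. In cKO 1 and cKO 2, Mef2c was at 34.3 and 37.0 CPM, Mef2a at 188.5 and 198 CPM, and Mef2d at 233 and 224 CPM. The part of choroid plexus in these values was not tested.

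Calcium-dependent signalling to MEF2 is the first step above the family. Of 20 genes of this list, all tested, 2 fell and 0 rose, or 10% beside 4.04% of all tested genes, with a median log2 fold change of −0.047 beside 0.0036 over all tested genes. Camk4, a nuclear calcium/calmodulin-dependent kinase that can relieve MEF2 from class IIa deacetylases, fell to 222 and 211 CPM in Kdm6b-cKO, against 263 and 271 CPM in WT (log2 fold change −0.30, SE 0.068, edgeR adjusted p = 0.0126). Rcan2, a regulator of calcineurin, fell to 70.3 and 61.6 CPM in Kdm6b-cKO, against 95.2 and 98.1 CPM in WT (log2 fold change −0.55, SE 0.086, edgeR adjusted p = 5.56e-04). Both genes had lower values in both Kdm6b-cKO libraries, with no overlap.

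The abundant members of that list did not pass. The calmodulin genes Calm2 and Calm3 had log2 fold changes of −0.045 and −0.0014, and the calcineurin catalytic subunit gene Ppp3ca was at 949 and 881 CPM in Kdm6b-cKO and 849 and 861 CPM in WT (log2 fold change 0.098). The call for Camk4 was lost without WT 1 (edgeR adjusted p = 0.103), without WT 2 (0.187) and when genes of low counts were kept (0.0729). Without cKO 1 or without cKO 2 no gene of the 17292 and 17363 tested passed in edgeR, with 2315 and 1718 at an unadjusted p under 0.05, so every call on these lists was lost there.

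Kinases and modifiers that act on MEF2 proteins or their deacetylases formed the second list. Of 16 genes 1 rose and 0 fell, or 6.25% beside 4.04% of all tested genes, with a median of 2.75e-05 on the log2 scale. Mapk7, which encodes ERK5, a kinase that phosphorylates MEF2 factors in their activation domain, rose to 88.1 and 108 CPM in Kdm6b-cKO, against 73.7 and 74.3 CPM in WT (log2 fold change 0.41, SE 0.093, edgeR adjusted p = 0.0141). Of the Kdm6b-cKO libraries cKO 2 was the higher, and the log2 fold change was 0.25 without it and 0.55 without cKO 1. DESeq2 did not call it (adjusted p = 0.0507), nor did edgeR when genes of low counts were kept (adjusted p = 0.121).

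The most abundant kinases of this list did not pass. Gsk3b was at 254 and 275 CPM in Kdm6b-cKO and 238 and 263 CPM in WT, and Prkaca, a catalytic subunit gene of protein kinase A, had a log2 fold change of 0.047. Cdk5r1, the p35 activator of CDK5, was at 193 and 220 CPM in Kdm6b-cKO and 176 and 191 CPM in WT (log2 fold change 0.17, edgeR adjusted p = 0.271). Sik3, a kinase that phosphorylates class IIa deacetylases, was at 172 and 139 CPM in Kdm6b-cKO and 194 and 176 CPM in WT (log2 fold change −0.25, edgeR adjusted p = 0.129).

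Corepressors, coactivators and partner factors formed the third list. Of 17 genes 0 passed in edgeR, beside 4.04% of all tested genes, and 0 in DESeq2, while limma-voom called 1, Hdac5. In edgeR 3 of them had an unadjusted p under 0.05, beside 16.3% of all tested genes. The median log2 fold change was −0.074, beside 0.0036 over all tested genes, with 14 members below 0 and 3 above it. Hdac5, a class IIa deacetylase gene, was at 132 and 106 CPM in Kdm6b-cKO, against 145.5 and 150.1 CPM in WT (log2 fold change −0.31, SE 0.090, edgeR adjusted p = 0.0529, limma-voom adjusted p = 0.0481). Its other class IIa relatives, named here after their values were seen, had log2 fold changes of −0.011 (Hdac4), 0.19 (Hdac7) and 0.048 (Hdac9). The coactivator genes Ep300 and Ncoa2 were at −0.073 and −0.073 on the same scale.

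Genes named in other work as MEF2 targets in neurons formed the last list. Of 14 genes 3 fell and 1 rose, or 28.6% beside 4.04% of all tested genes, with a median log2 fold change of −0.12. The list was drawn up with some of these values known, so its count is no independent evidence. Nr4a1, an orphan nuclear receptor gene induced by activity, fell to 16.6 and 13.8 CPM in Kdm6b-cKO, against 37.9 and 20.8 CPM in WT (log2 fold change −0.94, SE 0.20, edgeR adjusted p = 0.00870). Jun, a component of the AP-1 factor, fell to 48.8 and 49.1 CPM in Kdm6b-cKO, against 65.3 and 66.0 CPM in WT (log2 fold change −0.42, SE 0.093, edgeR adjusted p = 0.0105). Both are also immediate-early genes, and their levels were lower in both Kdm6b-cKO libraries than in either WT library.

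Dipk2a, counted under its older symbol 1190002N15Rik, fell to 101 and 88.6 CPM in Kdm6b-cKO, against 121 and 116.5 CPM in WT (log2 fold change −0.32, SE 0.083, edgeR adjusted p = 0.0309).

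Nr4a1 rested in part on WT 1, and its log2 fold change was −0.45 without that library (edgeR adjusted p = 0.350). DESeq2 did not call it either (adjusted p = 0.371), nor did edgeR when genes of low counts were kept (adjusted p = 0.134). Jun was lost without WT 1 (edgeR adjusted p = 0.0547), without WT 2 (0.0562) and with no filter (0.0576), and 1190002N15Rik without WT 1 (0.198), without WT 2 (0.0752), with no filter (0.137) and in DESeq2 (adjusted p = 0.0999).

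Abundant targets did not pass. Syt1, a calcium sensor gene of synaptic vesicles, was at 356 and 336 CPM in Kdm6b-cKO and 397 and 393 CPM in WT (log2 fold change −0.19, edgeR adjusted p = 0.139). Ube3a, a ubiquitin ligase gene, and Kcna1, a potassium channel gene, had log2 fold changes of 0.0051 and 0.023. Bdnf, the neurotrophin gene, is given here although chosen after its values were seen. It was at 2.22 and 2.02 CPM in Kdm6b-cKO, against 3.67 and 6.59 CPM in WT (log2 fold change −1.27, SE 0.37, edgeR adjusted p = 0.0552), and the WT libraries differed more from each other than WT 1 did from either Kdm6b-cKO library. Without WT 1 it passed (log2 fold change −1.63, edgeR adjusted p = 0.0197).

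**Figure D4:**
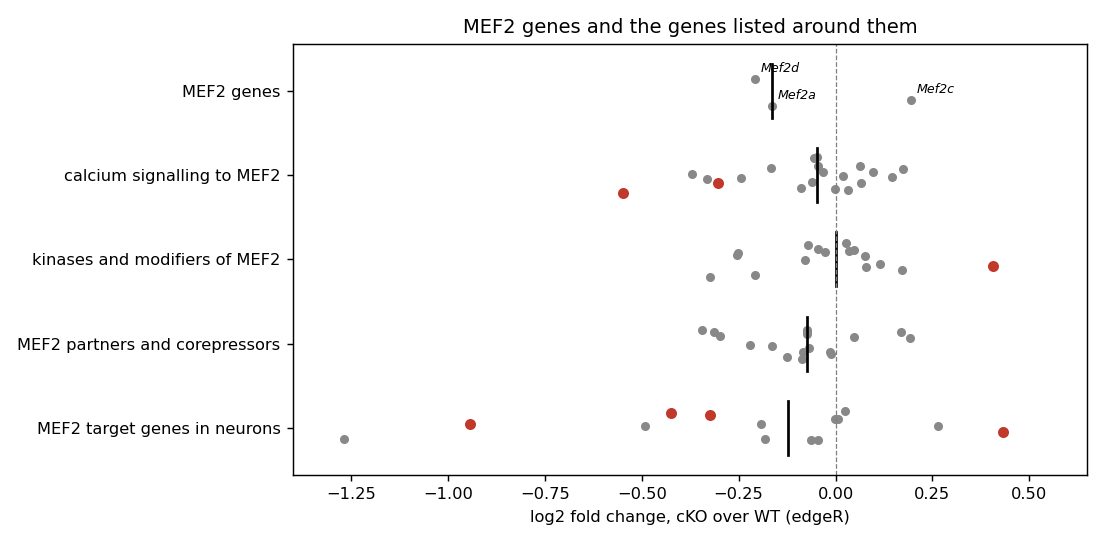
Log2 fold change (cKO over WT, edgeR) of the 3 tested MEF2 genes and of the members of the 4 lists, each gene a point at an arbitrary height within its row, red where the adjusted p is under 0.05, with a bar at the median of each row. The MEF2 genes lie between −0.21 and 0.20, and the 7 red points run from −0.94 to 0.43, Nr4a1 being the lowest of them.

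Genes with patterns like those of the members were sought by the root mean square distance of log2 levels, each centred on its own mean over the 4 libraries, among 16470 other genes. Nearest to Mef2a were Wipf3, Glt8d1 and Gm20529 (distances 0.00854, 0.00991 and 0.0114). Among the nearest to Mef2d were Pex6 and Dmxl1 (0.00800 and 0.00915). Nearest to Mef2c were Trp53, Plxna3 and D830050J10Rik (0.00387, 0.00998 and 0.0121). With 4 libraries such neighbours were plentiful, since 310, 454 and 347 genes lay within 0.05 of Mef2a, Mef2d and Mef2c, and none of the 8 genes named passed the test of genotype.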

How the data were processed

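RNA was measured in cerebellum from 2 Kdm6b-cKO and 2 WT mice, with groups and replicate numbers from the sample titles, although both samples titled replicate 2 are described as replicate 1. Per the labels and methods, the authors used Trimmomatic 0.38 for trimming and STAR 2.7.2b for alignment to mm10, and deposited whole-number counts per gene over exon features from HTSeq. Every symbol matched GENCODE M21 (GRCm38), which gave coordinates and lengths. Totals that name no gene were left out, and counts in genes were 39.0% to 40.5% of all entries.

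Genes were filtered with filterByExpr, scaled by TMM and tested with edgeR 4.0.16 (glmQLFit, glmQLFTest, two-sided) in R 4.3.3, after a check on simulated counts. Standard errors came from the F statistic. Alternatives were DESeq2 1.42.0, limma-voom (limma 3.58.1), other scaling and filters, a replicate block and leaving out each library. The chi-square between replicates, per degree of freedom, was 3.99 in cKO and 3.56 in WT, above sampling noise.

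Members and lists were chosen with earlier results of these data known. Named genes were the members, Kdm6b, listed genes past the threshold (up to 6 per list), the 4 most abundant others per list, and the 3 nearest genes per tested member. Some genes taken by this rule are not reported here. Centred log2 levels used a pseudocount of 0.5 CPM.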

Additional observations from a re-analysis of the deposited data

How the results depend on the processing

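The direction of Mef2a, Mef2c and Mef2d was the same in edgeR with TMM and under all 11 alternatives, and Mef2b kept its direction with no filter. Leaving out 1 library gave log2 fold changes of −0.25 to −0.074 for Mef2a, 0.12 to 0.27 for Mef2c and −0.26 to −0.16 for Mef2d. For each of these genes the change was largest without WT 1 and smallest without WT 2. Mef2d passed only with the replicate block (−0.21, edgeR adjusted p = 0.0287, and 0.0750 to 0.647 over its other alternatives). Replicate numbers are not stated to pair animals, titles and descriptions differ on them, and same-numbered libraries deviated together with a correlation of 0.0429 over genes. With the block 1130 genes were called, against 671. Calls were 320 in DESeq2, 177 with no filter (28952 genes tested), and 368, 507, 0 and 0 without WT 1, WT 2, cKO 1 and cKO 2. Lower genes made up 53.8% of calls and 40.2% with scaling by library size alone, and 63.0% with upper-quartile scaling.

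List counts moved as follows. The calcium list had 2 calls, 1 with no filter, 3 with the block (Camk1d added) and 0 to 1 with a library left out. The kinase list had 1 call, 0 with no filter and in DESeq2, 3 with the block and 0 to 1 with a library left out. The partner list had 0 calls, and 1 (Hdac5) with upper-quartile scaling, limma-voom or the block. The target list had 4 calls, 1 with no filter, 2 in DESeq2, 5 with the block (Bdnf added) and 0 to 2 with a library left out. The causes were not tested, except that fewer libraries were fitted when 1 was left out, the remaining one being assumed to share the spread of the other genotype. The summed level stayed at 0.850 to 0.918 times WT under its alternatives, among them unshared and principal transcript lengths, which were chosen after seeing the data.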
